A study of Mus musculus with 8 samples.

Results

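Epcam and 5 cadherin genes (Cdh1, Cdh2, Cdh3, Cdh11 and Cdh13) were followed in lung cells sorted by protease activity from mice with Eml4-Alk tumors. These 6 genes were taken by symbol from the 27179 genes of the count table, and 6 of 6 had enough counts to be tested. Cdh1, Cdh2 and Cdh3 encode type I classical cadherins and Cdh11 a type II classical cadherin. Cdh13 encodes T-cadherin, which has the cadherin repeats but is held to the membrane by a lipid anchor and lacks the tail that binds catenins, and Epcam encodes an adhesion protein outside the cadherin superfamily.

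Classical cadherins join neighboring cells by calcium-dependent pairing of their outer repeats, while their tails bind catenins that link the junction to actin. E-cadherin (Cdh1) and EpCAM are carried by epithelial cells, P-cadherin (Cdh3) by basal and some other epithelial cells, N-cadherin (Cdh2) by neural, muscle, mesenchymal and mesothelial cells, cadherin-11 (Cdh11) by mesenchymal cells, and T-cadherin (Cdh13) by endothelial and muscle cells, where it binds adiponectin. In lung tissue, E-cadherin and EpCAM are found on airway and alveolar epithelium, and VE-cadherin (Cdh5) on endothelium.

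All 8 libraries came from C57BL/6 mice of the genotype labelled Eml4-Alk translocation, a rearrangement of Eml4 and Alk that an adenovirus delivering Cas9 and a pair of guide RNAs to the lung had produced, so that tumor cells and the surrounding lung cells share the suspension. The mice were 18 to 22 weeks old and 11 to 12 weeks past tumor induction. Each had received 4.5 nmol of QZ1-(PEG2K), a peptide probe whose Cy5 fluorescence is released by proteolytic cleavage, and lungs were taken 2 h after the intravenous dose. From live cells without CD45 or CD11b staining, a QZ1-hi and a QZ1-lo population were collected (conditions QZ+ and QZ- in the labels). The gates were drawn on a plot of probe signal against EpCAM antibody staining, with limits stated for probe signal. Cells of intermediate probe signal fell in neither population. At least 100000 cells were collected per population and bulk RNA-seq was run on 4 libraries of each. The comparison asks which genes differ between cells with high and low probe activation. No untreated or tumor-free mice were part of it, and both populations had been exposed to the probe. Both were gated from the same kind of suspension, so libraries of the 2 populations may share a mouse. No source used here says which do, and the tests below treat the libraries as unlinked. Replicate numbers below follow the order of the deposit, and no source used here says that libraries of the same number share a mouse. Because each population is a mixture, fewer cells of a type and less RNA per cell cannot be told apart.

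Total counts were between 18380918 and 26847938 per library, of which mitochondrial and ribosomal RNA genes took 44.0 to 65.7% in QZ1-hi and 34.3 to 53.5% in QZ1-lo. Levels are given in CPM, the counts relative to library size with TMM scaling in edgeR, on which 3 counts correspond to 0.0894 to 0.179 CPM. This floor covers counting error only. The populations also differed in cell content. Endothelial markers were higher in QZ1-hi for 14 of 16 genes tested, pericyte markers for 4 of 6, fibroblast markers for 8 of 13 and mesothelial markers for 3 of 3, whereas club cell markers were lower for 4 of 4, ciliated cell markers for 4 of 4 and alveolar type 1 markers for 4 of 5. The other alveolar type 1 marker, Pdpn, was higher (log2 fold change 0.72, adjusted p = 0.0157, edgeR), which with scaling by library size only it was not. Alveolar type 2 markers had 1 gene higher (Sftpc), 1 lower (Nkx2-1) and 5 that did not pass the test. Ptprc, which encodes the CD45 used to gate out leukocytes, was detected at 131 ± 64.2 CPM in QZ1-hi and 125 ± 30.0 CPM in QZ1-lo (SD, n = 4 each).

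The 6 genes split between the populations. Epcam and Cdh1 were lower in the QZ1-hi population, Cdh11 and Cdh13 were higher, and Cdh2 and Cdh3 did not pass the test. Against these 2 members lower and 2 higher, 8.21% of the 15583 genes tested were called lower and 9.88% higher at an adjusted p under 0.05 in the quasi-likelihood test of edgeR, adjusted by the Benjamini-Hochberg method over all genes tested. Log2 fold changes are QZ1-hi over QZ1-lo throughout, and the median over all genes tested was 0.02. With scaling by library size only this median was -0.44, so calls that this scaling ended are given beside the genes. The levels of each gene in each library are plotted next, with the fitted changes after them.

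**Figure D1:**
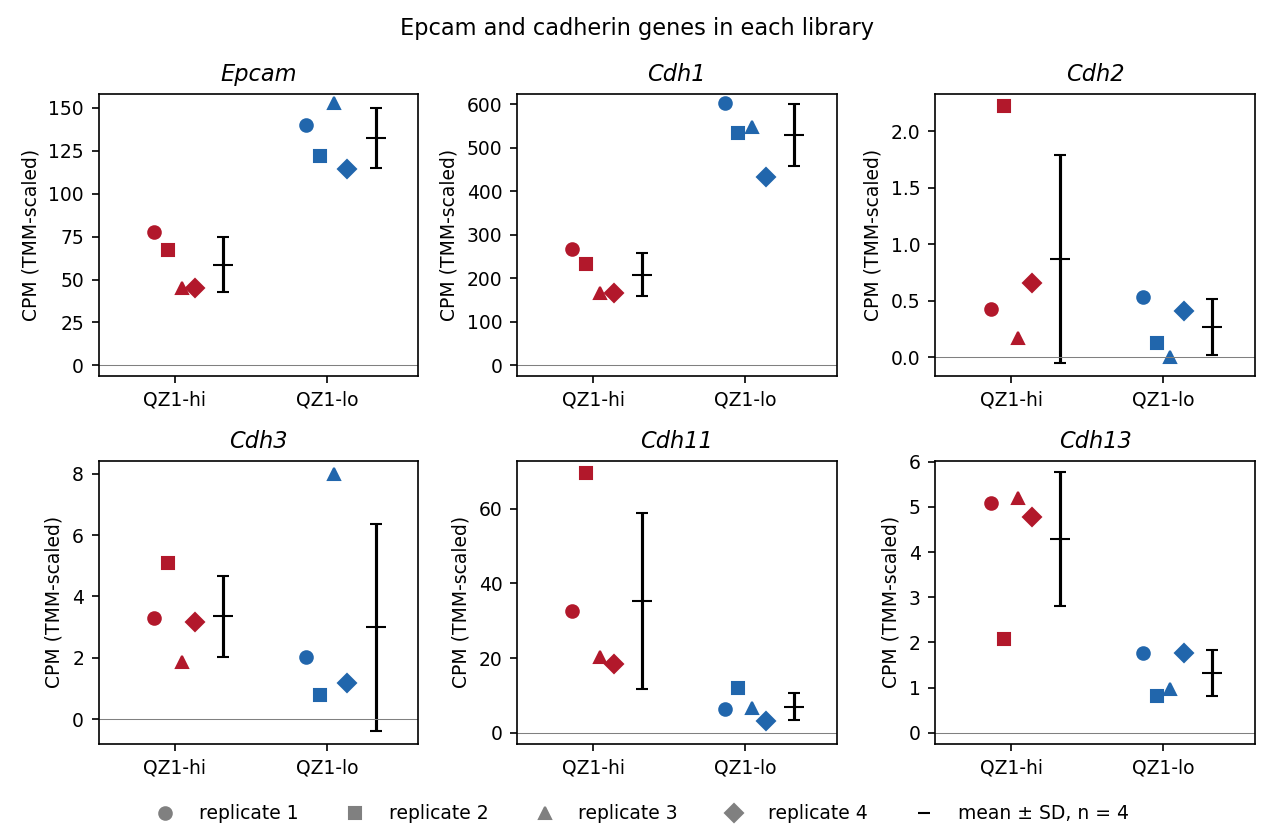
CPM (TMM-scaled, linear axes from 0) of Epcam, Cdh1, Cdh2, Cdh3, Cdh11 and Cdh13 in the 4 QZ1-hi (red) and 4 QZ1-lo (blue) libraries, with marker shape giving the replicate name and bars the mean ± SD. The populations do not overlap for Epcam, Cdh1, Cdh11 and Cdh13 (of all genes tested, 10.7% were lower and 11.9% higher in QZ1-hi without overlap), and they overlap for Cdh2 and Cdh3, where the highest libraries are QZ1-hi replicate 2 for Cdh2 (2.22 CPM) and QZ1-lo replicate 3 for Cdh3 (7.997 CPM, with QZ1-hi replicate 2 next at 5.09 CPM).

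Epcam (Entrez Gene 17075) lies on the plus strand of mouse chromosome 17 at chr17:87635979-87651127 (GRCm38.p6). The 250 bases before the annotated start, chr17:87635729-87635978 on the plus strand as given by RefSeq for GRCm38.p6, read 5′ to 3′ as follows, with each match to CACCTG, or to CAGGTG, its reverse complement, in capitals.
Epcam: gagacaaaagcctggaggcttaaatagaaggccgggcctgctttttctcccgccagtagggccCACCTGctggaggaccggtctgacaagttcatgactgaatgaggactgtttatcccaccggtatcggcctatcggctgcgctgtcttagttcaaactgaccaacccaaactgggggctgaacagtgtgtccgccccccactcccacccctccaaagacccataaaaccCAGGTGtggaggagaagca
CACCTG begins at position -187 and CAGGTG at position -19, counted from the annotated start. The motif was sought on both strands. Of 32851 promoter windows of this length, 17.2% held at least 1 match and 2.06% held 2 or more. A match is a description of letters only. Of the 6 genes, 1 (Epcam) was found in the promoter set, so no other promoter is shown.

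Epcam stood at 77.4, 67.3, 45.2 and 45.1 CPM in QZ1-hi replicates 1 to 4 and at 140, 122, 153 and 115 CPM in QZ1-lo replicates 1 to 4. Every QZ1-lo library was above every QZ1-hi library. The means were 58.7 ± 16.3 CPM in QZ1-hi and 132 ± 17.4 CPM in QZ1-lo (SD, n = 4 each), which gave a log2 fold change of -1.17 (SE 0.19, 95% interval -1.59 to -0.75, adjusted p = 0.00158, edgeR), or 2.25-fold lower in QZ1-hi. EpCAM protein was the other axis of the plot on which the gates were drawn, though the stated limits are for probe signal only. Epcam RNA may therefore not be independent of how the populations were drawn. The part of the gate in this difference was not tested. Epcam RNA was still present in the QZ1-hi libraries, at no less than 756 counts in any of them.

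Cdh1 (Entrez Gene 12550, chr8:106603350-106670247, plus strand) followed the same order. It measured 268, 232, 166 and 167 CPM in QZ1-hi replicates 1 to 4 against 602, 535, 547 and 433 CPM in QZ1-lo replicates 1 to 4. As for Epcam, the 2 populations did not overlap, with QZ1-hi replicates 1 and 2 above replicates 3 and 4 for both genes. The means of 208 ± 50.3 CPM (SD, n = 4) and 529 ± 70.4 CPM (SD, n = 4) gave a log2 fold change of -1.34 (SE 0.18, 95% interval -1.74 to -0.95, adjusted p = 0.000609, edgeR), or 2.54-fold lower in QZ1-hi. No antibody to E-cadherin was listed for the sort. Epcam and Cdh1 kept their calls in 8 of 8 alternative settings and 8 of 8 fits that left out a library.

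The ratio of Epcam to Cdh1 within a library, which does not depend on scaling, was compared as well. As log2 of the count ratio with 0.5 added to each count, it was -1.79, -1.79, -1.88 and -1.89 in QZ1-hi replicates 1 to 4 and -2.10, -2.13, -1.84 and -1.92 in QZ1-lo replicates 1 to 4. The populations overlapped, with QZ1-lo replicate 3 among the QZ1-hi values. The difference was 0.16 on the log2 scale (two-sided exact permutation p = 0.114, adjusted p = 0.114 over the 5 ratios to Cdh1), where 4 libraries against 4 cannot give a p under 0.0286. Without QZ1-lo replicate 3 it was 0.21 and passed (adjusted p = 0.0357, exact permutation test). Among all genes tested, profiles near to Epcam over the 8 libraries included those of Ssx2ip and Rhobtb1, at root mean square distances of 0.0494 and 0.118 log2 units after centering each gene on its own mean. Ssx2ip, Serpinb9 and Epcam itself were nearest to Cdh1, at 0.0964, 0.107 and 0.123 log2 units.

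The markers that moved with Epcam and Cdh1 were those of some epithelial types and not of others. Club cell markers summed to 314 to 982 CPM in QZ1-hi and 1400 to 4019 CPM in QZ1-lo, ciliated cell markers to 64.3 to 178 CPM and 290 to 548 CPM, and alveolar type 1 markers to 408 to 643 CPM and 794 to 965 CPM. Each of these 3 sums was lower in every QZ1-hi library than in any QZ1-lo library. Alveolar type 2 markers had sums of 5048 to 9317 CPM in QZ1-hi and 3770 to 5971 CPM in QZ1-lo that overlapped. Sftpc, which encodes a surfactant protein of alveolar type 2 cells, was higher in QZ1-hi with a log2 fold change of 0.78 (adjusted p = 0.0231, edgeR), whereas no alveolar type 2 marker passed as higher when only library size was used for scaling. Marker genes at 0 in at least 1 library were absent from the club, ciliated and alveolar lists. The part of these cell types in the Epcam and Cdh1 differences was not tested.

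**Figure D2:**
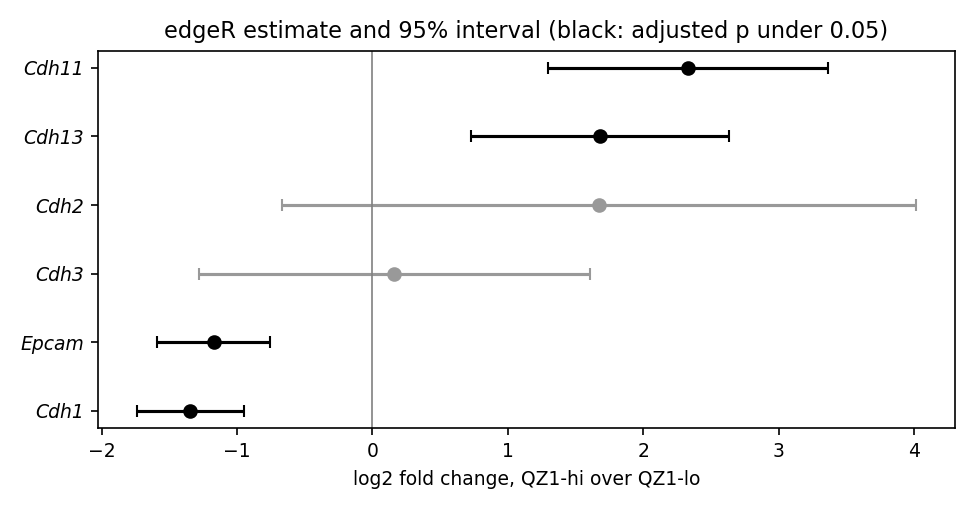
Log2 fold change of QZ1-hi over QZ1-lo (edgeR estimate, points) with its 95% interval (bars) for the 6 genes, in black where the adjusted p over all genes tested was under 0.05 and in grey otherwise. Cdh11 (2.33) and Cdh13 (1.68) lie to the right of 0 and Epcam (-1.17) and Cdh1 (-1.34) to the left, while the intervals of Cdh2 and Cdh3 include 0.

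Cdh11 (Entrez Gene 12552, chr8:102632095-102785493, minus strand) was the member with the largest fitted change. Its level was 32.5, 69.4, 20.4 and 18.5 CPM in QZ1-hi replicates 1 to 4 and 6.26, 12.0, 6.62 and 3.15 CPM in QZ1-lo replicates 1 to 4. The populations did not overlap, and replicate 2 was the highest library in each. With means of 35.2 ± 23.6 CPM (SD, n = 4) and 7.02 ± 3.69 CPM (SD, n = 4), the log2 fold change was 2.33 (SE 0.47, 95% interval 1.29 to 3.36, adjusted p = 0.00547, edgeR), or 5.03-fold higher in QZ1-hi. Without QZ1-hi replicate 2 it was 1.74 (adjusted p = 0.0114, edgeR), and the call held in 8 of 8 fits that left out a library. The genes nearest to its profile were C2, Enpp2 and Flrt2, at 0.339, 0.345 and 0.356 log2 units.

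Fibroblast and pericyte markers, which belong to cell types that carry cadherin-11, mostly moved in the same direction. The fibroblast markers summed to 1763 to 2854 CPM in QZ1-hi and 582 to 1033 CPM in QZ1-lo, and the pericyte markers to 186 to 324 CPM and 19.9 to 59.2 CPM, without overlap. QZ1-hi replicate 2 had the highest fibroblast sum but not the highest pericyte sum. Fn1 alone gave 950 to 1570 CPM of the fibroblast sum in QZ1-hi and 457 to 931 CPM in QZ1-lo. Fn1 was highest in QZ1-hi replicate 1, and Col1a1 and Col1a2, the next largest in QZ1-hi, in replicate 3. The order of the QZ1-hi libraries in this sum thus depended on Fn1. Among 13 fibroblast markers tested, 12 changed upward and Wif1 downward (log2 fold change -1.82, adjusted p = 0.168, edgeR). Of the fibroblast list, Fgfr4, Slc7a10, Slc38a5, Tcf21, Aspn and Wif1 were at 0 counts in at least 1 library, and of the pericyte list Higd1b was. The part of these cells in the Cdh11 difference was not tested.

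Cdh13 (Entrez Gene 12554, chr8:118140017-119324929, plus strand) was measured at low counts, 120, 42, 90 and 80 in QZ1-hi replicates 1 to 4 and 59, 20, 27 and 43 in QZ1-lo replicates 1 to 4. In scaled levels these were 5.08, 2.07, 5.20 and 4.77 CPM against 1.76, 0.814, 0.977 and 1.76 CPM. The lowest QZ1-hi library, replicate 2, remained just above the highest QZ1-lo libraries. Means of 4.28 ± 1.48 CPM (SD, n = 4) and 1.33 ± 0.503 CPM (SD, n = 4) gave a log2 fold change of 1.68 (SE 0.43, 95% interval 0.73 to 2.63, adjusted p = 0.0196, edgeR), or 3.21-fold higher in QZ1-hi. This call depended on single libraries. It was lost without QZ1-hi replicate 1 (log2 fold change 1.59, adjusted p = 0.0544), without QZ1-hi replicate 3 (1.53, adjusted p = 0.0646) or without QZ1-lo replicate 2 (1.51, adjusted p = 0.0516), all in edgeR. It was also lost when counts were scaled by library size only (1.23, adjusted p = 0.0949, edgeR). The nearest profiles to Cdh13 were those of Prdm11, Sgo1 and Plekho1, at 0.251, 0.266 and 0.358 log2 units.

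Endothelial cells are a known site of T-cadherin, and the endothelial marker sum was 2488, 1608, 3285 and 1734 CPM in QZ1-hi replicates 1 to 4 and 340, 363, 580 and 373 CPM in QZ1-lo replicates 1 to 4. QZ1-hi replicate 2, the lowest of its population for Cdh13, was also lowest in this sum, and QZ1-hi replicate 3, the highest for Cdh13, was highest. The order did not match within QZ1-lo, where replicate 3 had the highest sum with 0.977 CPM of Cdh13 and replicate 1 the lowest sum with 1.76 CPM. No endothelial marker was at 0 in any library. Smooth muscle markers summed to 25.0 to 38.8 CPM in QZ1-hi and 10.3 to 21.5 CPM in QZ1-lo. QZ1-hi replicate 2 was not low there, at 38.3 CPM. Of 4 such markers tested, 2 were higher (Tagln and Myh11) and 1 was lower (Cnn1, 1 count over the QZ1-hi libraries and 56 over the QZ1-lo libraries). With library size only, 1 was higher and 1 lower. The part of endothelial or muscle cells in the Cdh13 difference was not tested. Both adiponectin receptor genes missed the test, and Adipor2, the larger in counts, stood at 157 ± 45.5 CPM in QZ1-hi and 142 ± 25.4 CPM in QZ1-lo (SD, n = 4 each; log2 fold change 0.14, adjusted p = 0.715, edgeR).

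Cdh2 (Entrez Gene 12558, chr18:16588877-16809246, minus strand) was close to the floor. It had 10, 45, 3 and 11 counts in QZ1-hi replicates 1 to 4 and 18, 3, 0 and 10 counts in QZ1-lo replicates 1 to 4, or 69 and 31 in sum. QZ1-hi replicate 2 held most of the QZ1-hi counts, and the other libraries of the 2 populations overlapped. The levels were 0.869 ± 0.924 CPM (SD, n = 4) and 0.267 ± 0.248 CPM (SD, n = 4), with a log2 fold change of 1.67 and a 95% interval of -0.67 to 4.01 (SE 1.07, adjusted p = 0.347, edgeR). The interval held both a decrease and a large increase. Without QZ1-hi replicate 2 the log2 fold change was 0.60 (adjusted p = 0.806, edgeR). The nearest profiles, those of Clec2g, R74862 and Neto2, lay farther off than for the other members, at 0.598, 0.608 and 0.652 log2 units.

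Cdh3 (Entrez Gene 12560, chr8:106510852-106556911, plus strand), the neighbor of Cdh1 on chromosome 8, had 78, 103, 32 and 53 counts in QZ1-hi replicates 1 to 4 and 68, 19, 221 and 29 counts in QZ1-lo replicates 1 to 4. Scaled, these were 3.31, 5.09, 1.85 and 3.16 CPM against 2.03, 0.773, 7.997 and 1.19 CPM. QZ1-lo replicate 3 was above every QZ1-hi library, while QZ1-lo replicates 2 and 4 were below all of them. The means of 3.35 ± 1.33 CPM (SD, n = 4) and 2.996 ± 3.37 CPM (SD, n = 4) did not differ beyond this spread (log2 fold change 0.16, SE 0.66, 95% interval -1.28 to 1.61, adjusted p = 0.909, edgeR). Without QZ1-lo replicate 3 the log2 fold change was 1.32 (adjusted p = 0.108, edgeR), and the sign turned with scaling by library size only (-0.41). The nearest profiles were those of Baiap3, Prxl2b and Trp53rkb, at 0.336, 0.440 and 0.491 log2 units. Markers of basal cells, which carry P-cadherin, summed to 1.33 to 6.62 CPM in QZ1-hi and 1.43 to 5.29 CPM in QZ1-lo. QZ1-lo replicate 3 was not the highest of them, at 4.81 CPM, and Krt5, a defining keratin of basal cells, was at 0 in every library but QZ1-lo replicate 1.

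Cdh2, Cdh3 and Cdh11 each had their highest QZ1-hi level in replicate 2. The mesothelial markers Msln, Upk3b and Wt1 summed to 41.3, 208, 29.7 and 55.7 CPM in QZ1-hi replicates 1 to 4 and to 12.7, 27.5, 8.54 and 5.44 CPM in QZ1-lo replicates 1 to 4, so that QZ1-hi replicate 2 was the highest there too. It was likewise the highest QZ1-hi library for the sums of the club cell (982 CPM), ciliated cell (178 CPM) and basal cell (6.62 CPM) markers. The fibroblast sum was also highest there (2854 CPM), an order that depended on Fn1. The match was thus not particular to mesothelial genes. None of the 3 mesothelial markers was at 0 in any library. In QZ1-lo, replicate 2 was highest for the mesothelial sum and for Cdh11 but not for Cdh2 or Cdh3. The plot of these 4 quantities by library shows the shared high library beside the separate high Cdh3 value of QZ1-lo replicate 3. Whether mesothelial cells carried the high cadherin values was not tested.

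**Figure D3:**
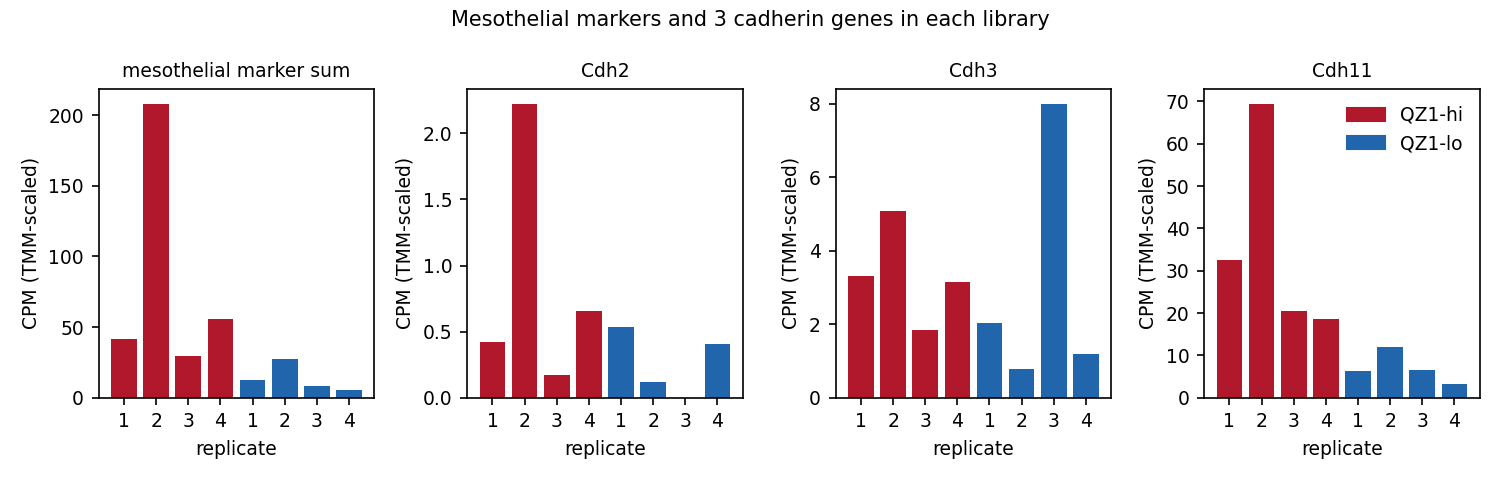
Bars give the CPM (TMM-scaled, axes from 0) of the summed mesothelial markers Msln, Upk3b and Wt1 and of Cdh2, Cdh3 and Cdh11 in each library, QZ1-hi in red and QZ1-lo in blue. QZ1-hi replicate 2 is the highest QZ1-hi library in all 4 panels (208 CPM for the marker sum and 69.4 CPM for Cdh11), and QZ1-lo replicate 3 is the highest library for Cdh3 alone (7.997 CPM).

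Ratios to Cdh1 set the other cadherins against E-cadherin inside each library. The log2 ratio of Cdh11 to Cdh1 ranged from -3.17 to -1.74 in QZ1-hi and from -7.09 to -5.47 in QZ1-lo, a difference of 3.63. Cdh13 to Cdh1 ranged from -6.79 to -4.99 and from -9.32 to -7.93, a difference of 3.04. Cdh2 to Cdh1 ranged from -9.68 to -6.69 and from -14.88 to -9.98, a difference of 3.32. None of these 3 ratios overlapped between the populations (two-sided exact permutation p = 0.0286 for each, the smallest that 4 against 4 allows, adjusted p = 0.0476 over the 5 ratios). Without any 1 QZ1-hi library the adjusted p was 0.0714 for Cdh11 and Cdh13 and 0.107 to 0.143 for Cdh2 (exact permutation tests). The ratios still did not overlap in these fits, with differences of 3.30 to 3.78 for Cdh11 and 2.81 to 3.41 for Cdh13. The adjusted p depends on how many of the 5 ratios reach the smallest p the test allows. In these fits Cdh11 and Cdh13 still reached it and Cdh2 did not, which raised the adjusted p of Cdh11 and Cdh13. In the Cdh2 ratio the QZ1-lo replicate with 0 Cdh2 counts takes its value from the 0.5 added to each count, and without it the difference was 2.26 (adjusted p = 0.0571, exact permutation test). The Cdh3 ratio differed by 2.04 with overlap (two-sided exact permutation p = 0.0857, adjusted p = 0.107), and without QZ1-lo replicate 3 it differed by 2.69 without overlap (adjusted p = 0.0357, exact permutation test). All 5 ratios share the Cdh1 counts, which were themselves lower in QZ1-hi.

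**Figure D4:**
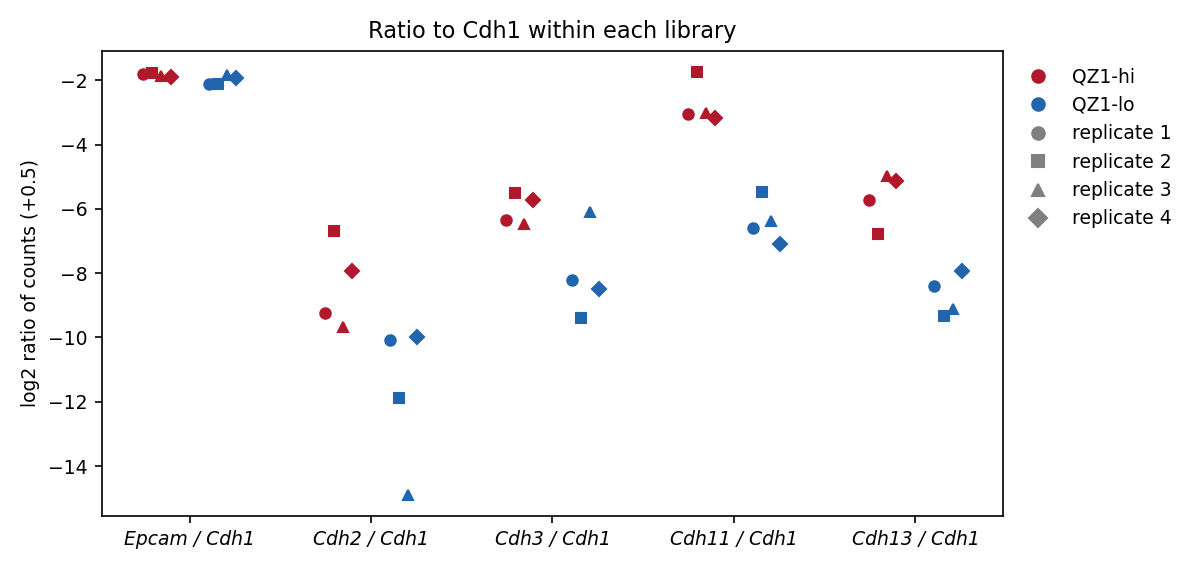
Log2 ratio of each gene's counts to the Cdh1 counts of the same library, with 0.5 added to both, for QZ1-hi (red) and QZ1-lo (blue) libraries, with marker shape giving the replicate name. Epcam over Cdh1 stays between -2.13 and -1.79 in all 8 libraries, whereas the Cdh2, Cdh11 and Cdh13 ratios are higher in every QZ1-hi library than in any QZ1-lo library.

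Levels between genes were compared per kilobase of exon. In QZ1-hi the order was Cdh1 at 45.6 ± 11.0 CPM per kb (SD, n = 4), Epcam at 26.8 ± 7.41, Cdh11 at 3.96 ± 2.65, Cdh3 at 0.764 ± 0.303, Cdh13 at 0.381 ± 0.132 and Cdh2 at 0.108 ± 0.115 CPM per kb. Cdh3 and Cdh13 overlapped across the 4 libraries, as did Cdh13 and Cdh2, while the other neighbors in this order did not. In QZ1-lo the order was Cdh1 at 116 ± 15.4 CPM per kb (SD, n = 4), Epcam at 60.3 ± 7.93, Cdh11 at 0.788 ± 0.415, Cdh3 at 0.683 ± 0.770, Cdh13 at 0.118 ± 0.0448 and Cdh2 at 0.0331 ± 0.0308 CPM per kb. There Cdh11 and Cdh3 overlapped and the other neighbors did not. Cdh1 was thus the highest of the 6 genes per kilobase in both populations, although it fell in QZ1-hi.

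Cdh5, the type II cadherin of endothelial cells (VE-cadherin), rose in QZ1-hi to 353 ± 169 CPM from a QZ1-lo level of 30.4 ± 23.0 CPM (SD, n = 4 each; log2 fold change 3.54, SE 0.50, adjusted p = 0.000837, edgeR). Over the 5 cadherin members and Cdh5, Cdh1 took 20.6 to 44.2% of the counts per kilobase in the QZ1-hi libraries and 87.0 to 96.0% in the QZ1-lo libraries. Cdh5 took 47.6 to 77.6% and 3.11 to 11.1%. Cdh1 was thus the leading cadherin in every QZ1-lo library and Cdh5 in every QZ1-hi library. Cdh11 made up 1.30 to 6.79% in QZ1-hi and 0.359 to 1.09% in QZ1-lo, Cdh3 0.239 to 1.01% and 0.142 to 1.33%, Cdh13 0.161 to 0.469% and 0.0583 to 0.159%, and Cdh2 no more than 0.240% in any library.

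**Figure D5:**
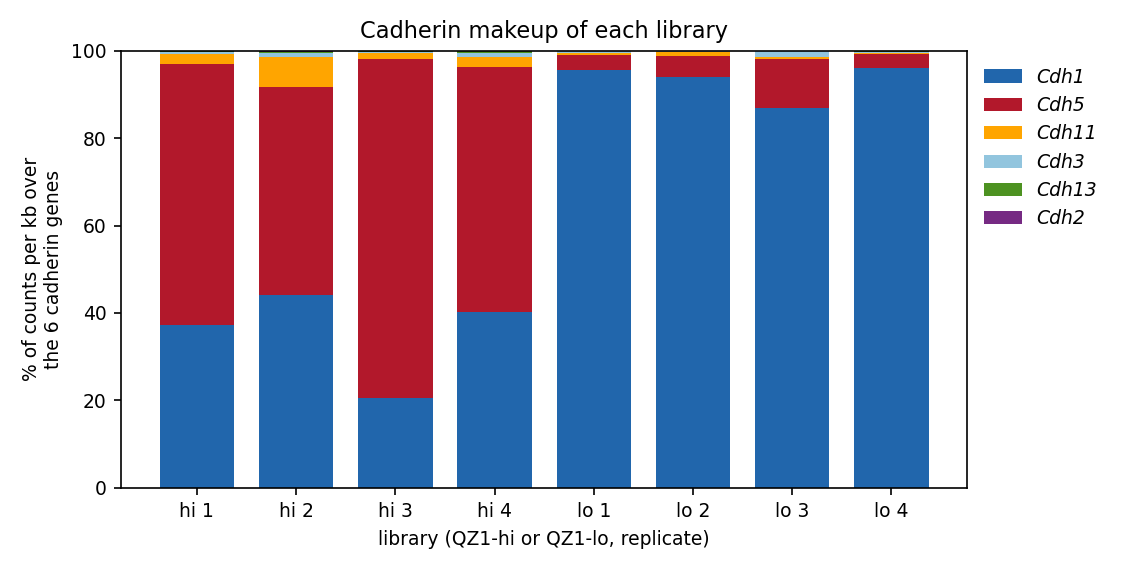
Stacked bars give the percentage of counts per kilobase of exon that each of 6 cadherin genes (Cdh1, Cdh5, Cdh11, Cdh3, Cdh13 and Cdh2) contributed in each library, with hi for QZ1-hi and lo for QZ1-lo. Cdh1 fills 87.0 to 96.0% of the QZ1-lo bars and 20.6 to 44.2% of the QZ1-hi bars, where Cdh5 is the larger share.

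Beyond Cdh5, the other classical cadherins were scarce. Of the 2 other type I genes, Cdh4, which encodes R-cadherin, was the only one with enough counts to test, at 1.76 ± 1.03 CPM in QZ1-hi and 0.861 ± 0.987 CPM in QZ1-lo (SD, n = 4 each; log2 fold change 1.03, adjusted p = 0.581, edgeR). Of the 12 other type II genes, 2 were tested, Cdh5 and Cdh24, and 4 (Cdh7, Cdh10, Cdh19 and Cdh20) had 0 counts in all 8 libraries. Among more distant members of the superfamily, 4 of 16 genes tested were higher and 4 lower, with a median log2 fold change of -0.34. Of all genes tested, 9.88% were higher and 8.21% lower. With library size only, 3 of the 16 were higher and 6 lower (median -0.68). Fat4, a giant atypical cadherin that pairs with Dchs1, rose by 2.73 (SE 0.17) and Dchs1 by 2.94 (SE 0.54) on the log2 scale. Cdhr3 and Cdhr4, which are cadherin-related genes, fell by 2.22 (SE 0.40) and 2.06 (SE 0.25), in libraries where all 4 ciliated cell markers tested were also lower. The part of ciliated cells in these 2 differences was not tested. Celsr1, a planar polarity cadherin, and Fat1 fell by 0.84 (SE 0.15) and 0.82 (SE 0.18).

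Genes for the cytoplasmic partners of the cadherins were called about as often as all genes tested, of which 9.88% were higher and 8.21% lower. Of 11 catenin and tail-partner genes tested, 1 was higher (Pkp4, log2 fold change 0.34, adjusted p = 0.0477, edgeR), 1 was lower (Afdn, -0.46, adjusted p = 0.0114, edgeR) and 9 did not pass the test, with a median of -0.08. The Pkp4 call was lost with DESeq2 size factors (0.33, adjusted p = 0.0528, edgeR), and its sign turned with library size only (-0.12), a scaling under which 3 of the 11 genes were lower and none was higher. Ctnnb1, which encodes beta-catenin, stood at 365 ± 15.6 CPM in QZ1-hi and 387 ± 15.9 CPM in QZ1-lo (SD, n = 4 each), with a 95% interval of -0.31 to 0.14 for its log2 fold change. Catenins are shared by E-cadherin and VE-cadherin junctions, and whether this bears on their levels here was not tested. Desmosomal genes, in contrast, had 6 of 7 tested members lower and none higher, with a median log2 fold change of -1.26. Dsp, the plaque protein desmoplakin, fell by 1.36 (SE 0.18), Pkp2 by 1.13 (SE 0.17), Pkp3 by 1.505 (SE 0.24) and Ppl by 0.83 (SE 0.16). Nectins, immunoglobulin-type adhesion proteins of the junctions that cadherins and catenins form, had 3 of 4 members lower. Among them were Nectin2 (-1.07, SE 0.18) and Nectin4 (-1.15, SE 0.23).

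Genes for partners of EpCAM were compared next. Of 7 genes, 5 were lower, none was higher and 2 (Cd44 and Cd9) did not pass the test, with a median log2 fold change of -0.91. Cd44 passed with library size only (-0.86, adjusted p = 0.0146, edgeR). Cldn7, the claudin that binds EpCAM, fell by 1.30 (SE 0.19). St14, the membrane protease matriptase that can cut EpCAM, fell by 1.35 (SE 0.21), and the genes of its inhibitors, Spint1 and Spint2, by 1.19 (SE 0.15) and 0.91 (SE 0.20). Of 9 genes for enzymes that shed or process EpCAM and cadherins, 2 were higher and none was lower. Over all genes tested the shares were 9.88% higher and 8.21% lower, so a count this small is not read as a result about these enzymes. Adam15 rose by 1.54 (SE 0.17) and Bace1 by 0.57 (SE 0.17), the latter not called with library size only (0.06, adjusted p = 0.890, edgeR). Adam10, the main sheddase of E-cadherin, stood at 85.6 ± 5.14 CPM in QZ1-hi and 114 ± 19.0 CPM in QZ1-lo (SD, n = 4 each; log2 fold change -0.41, adjusted p = 0.0505, edgeR). Adam10 passed the test with both other scalings, at -0.42 with DESeq2 size factors (adjusted p = 0.0475, edgeR) and -0.88 with library size only (adjusted p = 0.0208, edgeR).

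Zeb, Snail and bHLH factors are known repressors of Cdh1 transcription. Of 7 such genes tested, 4 were higher in QZ1-hi and none was lower, with a median log2 fold change of 1.95. Over all genes tested the shares were 9.88% higher and 8.21% lower. Zeb1 stood at 80.7 ± 24.8 CPM in QZ1-hi and 14.2 ± 4.44 CPM in QZ1-lo (SD, n = 4 each), which gave a log2 fold change of 2.51 (SE 0.26), and Tcf4 rose by 1.95 (SE 0.20), Snai2 by 3.67 (SE 0.75) and Zeb2 by 0.98 (SE 0.22). Zeb2 did not pass when only library size was used for scaling (0.47, adjusted p = 0.190, edgeR). Snai2 was scarce, at 173 counts over the QZ1-hi libraries and 19 over the QZ1-lo libraries. These factors are also made by endothelial and mesenchymal cells, whose markers were higher in the same libraries, and the part of those cells was not tested. Among 10 regulators of epithelial identity, 7 were lower and none was higher, with a median of -1.20, including Klf5 (-1.33, SE 0.13), the splicing regulators Esrp1 (-1.21, SE 0.15) and Esrp2 (-0.98, SE 0.17), and Elf3 (-1.20, SE 0.24).

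No exon of the 6 genes overlapped an exon of another gene in GENCODE M21. Of their exonic stretches of 50 bases, none was shared with another gene for Epcam, Cdh1, Cdh2 and Cdh3, 2.07% were shared for Cdh11 and 0.205% for Cdh13.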

How the data were processed

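The authors deposited raw counts per gene from Rsubread, without normalization, for 8 bulk RNA-seq libraries (SMARTer stranded total RNA kit, NextSeq500), with genes listed by Entrez identifier. The submitters' processing notes name mm10 and DESeq2. The aligner, annotation and strand setting are not given in the sources used here. Of the identifiers, 25293 received a symbol and 1886 did not. Positions and symbols came from RefSeq on GRCm38.p6 and exon lengths from GENCODE M21 (21610 genes matched).

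The test was run in edgeR 4.0.16 under R 4.3.3 (filterByExpr, minimum count 10 and minimum total 15; TMM; quasi-likelihood test; Benjamini-Hochberg over all genes tested). SE was derived from the estimate and its F statistic (absolute estimate over the root of F). The procedure was checked on simulated counts. Alternatives used DESeq2 1.42.0, limma 3.58.1 (voom with sample quality weights), other scalings and filters, and fits without 1 library. The deposit describes the 4 libraries of a population as biological replicates, and p-values measure the spread between them.

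The 6 genes and all lists were chosen with earlier results of these data known. Genes named from a list were the 4 with the smallest p among those called and the gene with the largest count sum. Dchs1, Cdh24, Cd9, Cdh7, Cdh10, Cdh19, Cdh20 and single markers were named after their values were seen. For each member, the 3 genes nearest in centered log2 CPM profile are also named, except where a gene is not reported here. Dchs2, Cfap144 and Hbb-bt were not analysed here.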

Additional observations from a re-analysis of the deposited data

Results flagged for a closer look

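The Cdh13 level of QZ1-hi replicate 2, 2.07 CPM, stood apart from its population, where the nearest other library was at 4.77 CPM. Its gap to that library was 0.861 of the population's whole range, above the 95% critical value of Dixon's test for 4 samples. It was the only 1 of 12 population and gene combinations tested to pass this limit, and chance passes about 1 in 20.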

How the results depend on the processing

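Epcam, Cdh1 and Cdh11 kept their direction and their calls in 8 alternative settings (log2 fold change -1.61 to -1.14, -1.78 to -1.34 and 1.89 to 2.35) and in 8 fits that each left out a library (-1.33 to -1.04, -1.49 to -1.22 and 1.74 to 2.72). Cdh13 kept its direction in all 16 and lost its call with scaling by library size only (1.23, adjusted p = 0.0949, edgeR) and in 3 fits without a library (range over the 8 fits 1.51 to 1.89). Cdh2 was not called in 6 alternatives (1.05 to 1.69) nor without a library (0.60 to 2.28). Cdh3 was not called in any setting and changed sign with library size only (-0.41) and without QZ1-hi replicate 2 (-0.13), QZ1-lo replicate 2 (-0.15) or QZ1-lo replicate 4 (-0.10), within a range of -0.15 to 1.32. Scaling by library size only moved the genes called to 882 higher and 2509 lower, and the median change over the tested genes to -0.44 (log2). Without a library, 1136 to 1506 genes were higher and 938 to 1201 lower. The ratios to Cdh1 kept their direction without a library. The range was 0.12 to 0.21 for Epcam, 2.26 to 3.90 for Cdh2, 1.59 to 2.69 for Cdh3, 3.30 to 3.94 for Cdh11 and 2.81 to 3.41 for Cdh13. Without any 1 QZ1-hi library none of the 5 had an adjusted p under 0.05 (exact permutation tests), and without QZ1-lo replicate 3 the Epcam and Cdh3 ratios passed (adjusted p = 0.0357) while Cdh2 did not (adjusted p = 0.0571, exact permutation tests). Adding 1 in place of 0.5 changed no call. The Cdh2 counts were too few for the filter of at least 10 counts in every library, and the gene fell below the filter when mitochondrial and ribosomal RNA genes were removed. Causes of these shifts were not tested. No paired analysis was possible because no source used here says which libraries of the populations share a mouse.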
